A study of Mus musculus with 8 samples.

Results

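The genes described here form the axis from granulocyte colony-stimulating factor (G-CSF), leukaemia inhibitory factor (LIF) and oncostatin M to the transcription factor STAT3. The 10 members were named by symbol and taken from the 55335 gene identifiers of the deposited table whatever their level: the cytokines Csf3, Lif, Osm and Il6, the receptor chains Il6st, Il6ra and Csf3r, the kinase Jak1, the factor Stat3 and the inhibitor Socs3. The samples were RAW264.7 cells, a mouse macrophage-like tumour line, sequenced after 3 days of culture with 1 of 2 bone scaffolds. One group grew with HA/Mg, hydroxyapatite doped with Mg2+, and the other with TABS, the Trio-Active bone scaffold, in 4 libraries each, numbered 5 to 8 in both groups. Both groups are the same line without a named genetic change, and no library from cells without a scaffold was analysed here. The labels do not say whether the libraries came from separate cultures, so p-values measure only how far these libraries differ, and that spread may be technical. The table's columns carry the letters H for TABS and L for HA/Mg through the sample descriptions, the labels do not explain the letters, and an exchange of the groups would turn every direction given here.

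G-CSF, LIF, oncostatin M and interleukin 6 are secreted proteins that act through receptors of 1 structural family. The interleukin 6 receptor chain pairs with gp130, the product of Il6st, which is also the shared chain for LIF and oncostatin M, while G-CSF binds pairs of its own receptor. The occupied receptors activate Janus kinases, chiefly JAK1, which phosphorylate STAT3, and STAT3 enters the nucleus and drives Socs3, whose product blocks gp130 and the G-CSF receptor. In bone, oncostatin M made by macrophages is known to favour osteoblast formation, and G-CSF is best known for driving neutrophil production and mobilising cells from the marrow. RNA levels say nothing of phosphorylated STAT3, which is the active form.

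The sequence before the gene start is shown for the members in which a short motif of a factor linked to this axis was found, so that the letters can be read beside the RNA levels. RefSeq promoter entries of GRCm38.p6 were matched for 8 of the 10 members, and Csf3 and Osm had no entry. In the 250 bases before the start, 3 patterns were searched on both strands: TTCNNNGAA for STAT factors, GGGANNTTCC for NF-kB and TGANTCA for AP-1. Capitals mark the matches, and each line runs 5′ to 3′ on the gene's strand and stops where an annotated exon of the gene begins. Distances are to the start given by RefSeq.
Lif, chr11:4257318-4257556, plus strand: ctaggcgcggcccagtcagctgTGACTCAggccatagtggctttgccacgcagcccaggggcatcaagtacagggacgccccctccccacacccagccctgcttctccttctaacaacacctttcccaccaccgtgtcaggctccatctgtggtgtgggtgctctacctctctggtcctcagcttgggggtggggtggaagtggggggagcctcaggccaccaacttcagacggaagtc
Il6, chr5:30012864-30013113, plus strand: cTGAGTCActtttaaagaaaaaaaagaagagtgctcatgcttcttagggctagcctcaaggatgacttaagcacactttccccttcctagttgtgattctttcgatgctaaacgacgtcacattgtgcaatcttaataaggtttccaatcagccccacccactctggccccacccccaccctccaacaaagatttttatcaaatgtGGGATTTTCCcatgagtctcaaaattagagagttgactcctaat
Csf3r, chr4:126024409-126024549, plus strand: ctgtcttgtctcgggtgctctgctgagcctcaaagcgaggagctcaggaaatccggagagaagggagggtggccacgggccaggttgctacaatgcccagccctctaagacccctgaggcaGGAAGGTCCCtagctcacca
Socs3, chr11:117969452-117969616, minus strand: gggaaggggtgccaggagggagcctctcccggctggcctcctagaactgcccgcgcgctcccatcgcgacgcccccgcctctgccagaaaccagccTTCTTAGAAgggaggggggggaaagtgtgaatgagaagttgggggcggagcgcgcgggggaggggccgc
The Socs3 match, TTCTTAGAA, is of the STAT pattern and begins 154 bases before the gene start. This stretch of Socs3 is intronic in a longer GENCODE transcript that begins further upstream. Il6 has the NF-kB match GGGATTTTCC beginning 44 bases before its start and the AP-1 match TGAGTCA 249 bases before it. The NF-kB match of Csf3r, GGAAGGTCCC, is the pattern read on the other strand and begins 129 bases before the start, and the AP-1 match of Lif, TGACTCA, begins 228 bases before it. The other 4 members with an entry (Il6st, Il6ra, Jak1 and Stat3) held none of the 3 patterns in this window. Among 32851 promoters of the same length, 7.02% held the STAT pattern, 1.21% the NF-kB pattern and 6.75% the AP-1 pattern. A match is a string of letters, not a measured binding site.

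The levels are FPKM, fragments scaled to transcript length and library size, which can be compared between genes. With TABS the members ranked Csf3, Jak1, Socs3, Stat3, Csf3r, Osm, Il6st, Lif, Il6ra and Il6 by mean level, from 44.1 FPKM to 0.747 FPKM. With HA/Mg Jak1 came first, at a mean of 35.6 FPKM, then Socs3, Csf3, Stat3, Csf3r, Osm, Il6st, Il6ra, Lif and Il6, the last at 0.487 FPKM. Neighbours in the order whose libraries overlapped were, with TABS, Csf3 and Jak1, Stat3 and Csf3r, Csf3r and Osm, Il6st and Lif, and Lif and Il6ra. With HA/Mg the overlapping neighbours were Socs3 and Csf3.

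**Figure D1:**
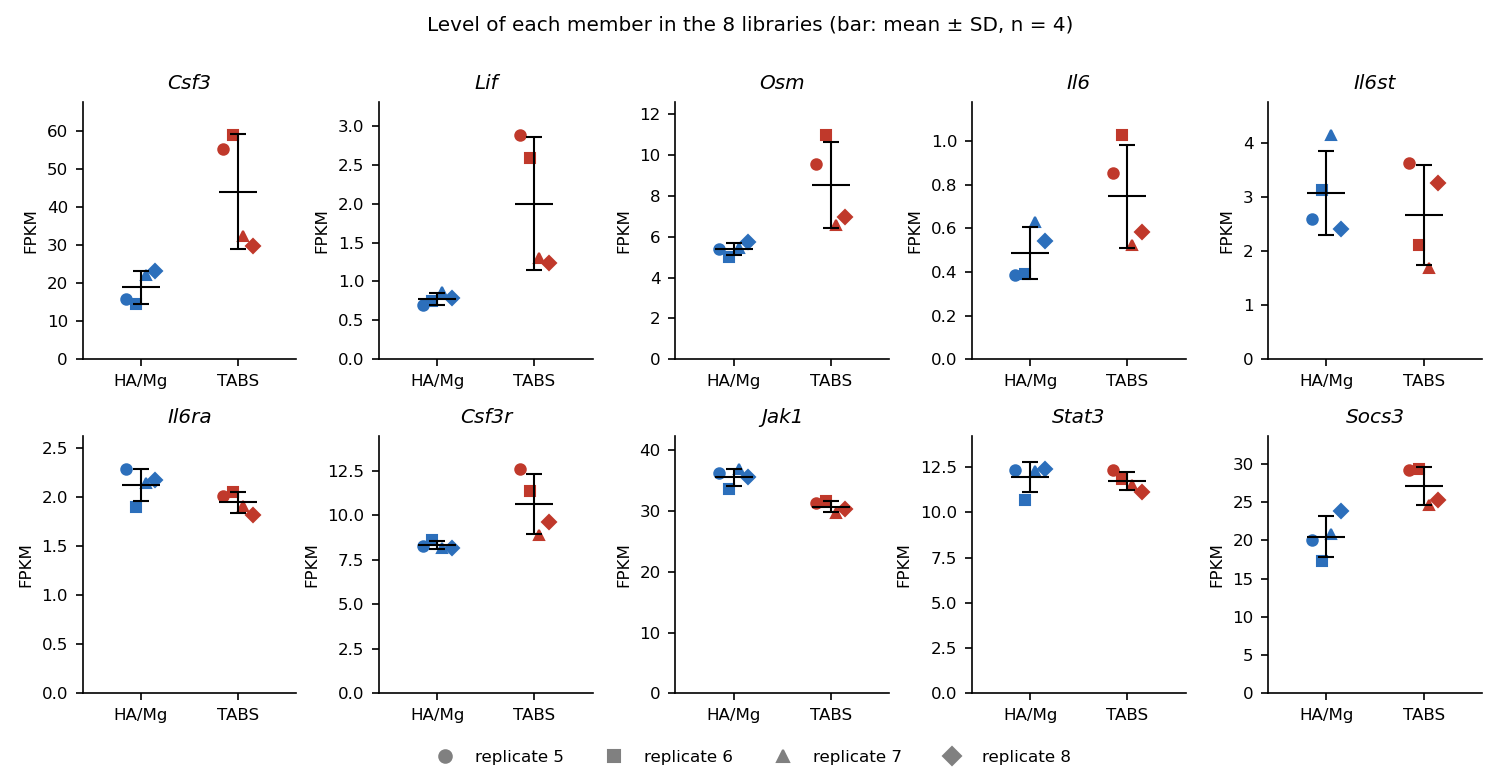
Level of each member in FPKM (vertical axis, starting at 0, with its own scale in each panel) in the 4 HA/Mg libraries (blue) and the 4 TABS libraries (red), 1 point per library with the shape giving the replicate number, and the mean ± SD as a bar. Csf3, Lif, Osm, Csf3r and Socs3 were higher in every TABS library than in any HA/Mg library, Jak1 was lower, and the other 4 members overlapped.

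Of the 10 members 9 entered the test, which took genes that reached 1 FPKM in 4 or more of the 8 libraries, and Il6 did not. Csf3, Lif, Osm and Socs3 rose with TABS and Jak1 fell, at an adjusted p under 0.05 from limma on log2(FPKM + 1) over all 10161 genes tested, and the other 4 did not pass. Over all genes tested 5.07% rose and 13.1% fell. The groups did not overlap in 5 members that were higher with TABS and 1 that was lower, against 8.05% and 15% of all genes tested. The median log2 change was 0.31 over the 9 tested members and -0.036 over all genes tested. Lif entered only through its 4 TABS libraries, so these counts and this median describe the tested members and no more. The number of members past the threshold was 1 without a filter on low values and 2 with the length and GC trends of the libraries removed. Over all genes, 1842 passed in the main fit, 808 without that filter and 647 with the trends removed. Leaving out HA/Mg replicate 5 left 0 members past the threshold, leaving out HA/Mg replicate 7 left 1, leaving out TABS replicate 5 left 2, and leaving out either TABS replicate 6 or HA/Mg replicate 8 left 3. Fewer of all genes passed as well: 429 without HA/Mg replicate 5, 858 without TABS replicate 5 and 1143 without TABS replicate 6. These lower counts are thus not particular to the members.

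**Figure D2:**
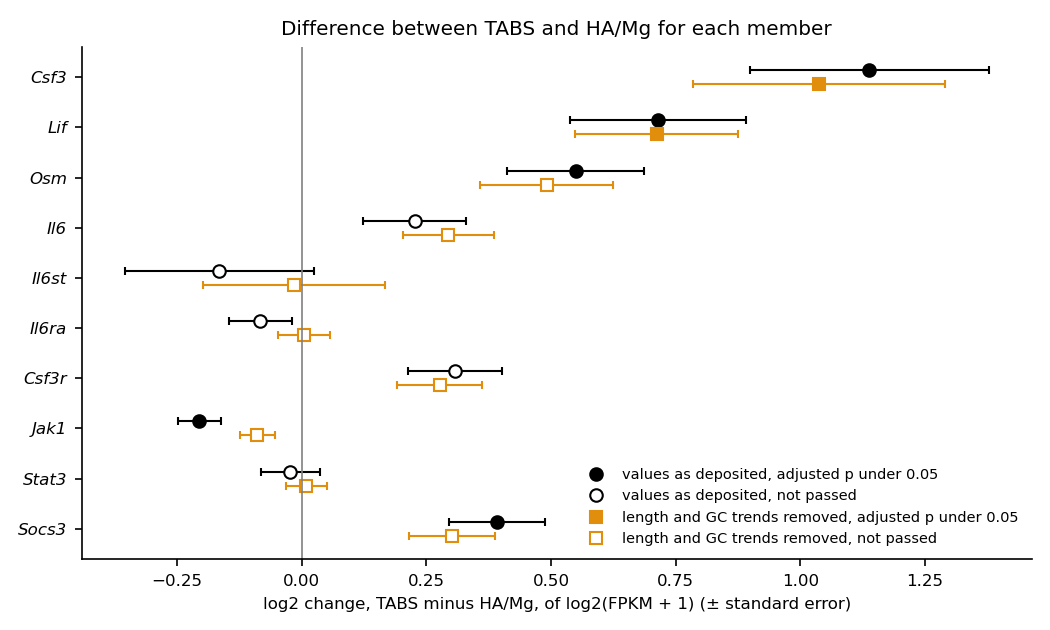
Log2 change of log2(FPKM + 1), TABS minus HA/Mg, for each member (horizontal axis), with the model's standard error as bars, for values as deposited (black circles) and after removal of the trends with length and GC content within each library (orange squares). Filled symbols have an adjusted p under 0.05. Il6 is drawn from fits without a filter on low values, and the other members from fits with it. Csf3 and Lif were filled in both, while Osm, Jak1 and Socs3 were filled only for values as deposited. Lif entered both fits only through its 4 TABS libraries, so its filled symbols are not support.

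Csf3, which encodes G-CSF, rose with TABS. In the order of replicates 5 to 8, here and in the lists that follow, its levels were 55.3, 58.9, 32.3 and 29.8 FPKM with TABS. The HA/Mg libraries held 15.9, 14.6, 22.2 and 23.1 FPKM. Every TABS library lay above every HA/Mg library, and TABS replicates 5 and 6 stood well above replicates 7 and 8. The means were 44.1 ± 15.1 FPKM with TABS and 19.0 ± 4.33 FPKM with HA/Mg (SD, n = 4), a ratio of 2.33. The log2 change was 1.14 ± 0.24 (standard error), with an adjusted p of 0.0170 from limma. Without HA/Mg replicate 5 the log2 change was 1.07 and the adjusted p was 0.0581. The gene (ENSMUSG00000038067) lies at chr11:98701263-98703629 on the plus strand of GRCm38.

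Lif encodes a cytokine named for its action on leukaemia cells and used to keep mouse embryonic stem cells undifferentiated. It stood at 2.88, 2.59, 1.30 and 1.24 FPKM in the TABS libraries and 0.696, 0.753, 0.868 and 0.782 FPKM in the HA/Mg libraries. The groups did not overlap, and TABS replicates 5 and 6 were again the highest. The means were 2.0 ± 0.854 and 0.775 ± 0.0717 FPKM (SD, n = 4), a ratio of 2.58. On the log2(FPKM + 1) scale, which understates changes at such levels, the change was 0.71 ± 0.18, with an adjusted p of 0.0270 from limma. Lif entered that test only because its 4 TABS libraries passed 1 FPKM, and in the fit without a filter the adjusted p was 0.0877. With a pseudocount of 0.1 its log2 change was 1.17, close to the 1.18 of Csf3. The adjusted p was 0.0582 without TABS replicate 5, 0.0590 without TABS replicate 6, and 0.0791, 0.0667 and 0.0663 without HA/Mg replicates 5, 7 and 8. Its levels correspond to an estimated 63 to 252 fragments in a library.

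Osm encodes oncostatin M, a cytokine made mainly by activated macrophages and neutrophils. Its gene (ENSMUSG00000058755, chr11:4236420-4241026) and that of Lif (ENSMUSG00000034394, chr11:4257557-4272514) are near one another on the plus strand. Osm was at 9.59, 11, 6.60 and 6.96 FPKM in the TABS libraries and 5.39, 5.02, 5.46 and 5.73 FPKM in the HA/Mg libraries. The HA/Mg libraries lay close together, and all 4 TABS libraries were above them. The means were 8.53 ± 2.11 and 5.40 ± 0.293 FPKM (SD, n = 4), a ratio of 1.58, and the log2 change was 0.55 ± 0.14, with an adjusted p of 0.0282 from limma. The adjusted p was 0.0625 once the length and GC trends were removed, 0.0707 without TABS replicate 5, and 0.0779, 0.0730 and 0.0598 without HA/Mg replicates 5, 7 and 8.

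Il6 encodes interleukin 6, a cytokine that macrophages release in quantity after bacterial stimuli. Here it was the lowest member, at 0.853, 1.03, 0.525 and 0.583 FPKM in the TABS libraries and 0.385, 0.392, 0.628 and 0.542 FPKM in the HA/Mg libraries. TABS replicates 5 and 6 were the highest, and replicates 7 and 8 fell within the HA/Mg range. The means were 0.747 ± 0.235 and 0.487 ± 0.119 FPKM (SD, n = 4). The gene (ENSMUSG00000025746) lies at chr5:30013114-30019981 on the plus strand. In the fit without a filter on low values, over 22906 genes, its log2 change was 0.23 ± 0.10 with an unadjusted p of 0.0620 and an adjusted p of 0.287 from limma. In that fit 0.96% of genes rose and 2.57% fell. These levels correspond to an estimated 20 to 47 fragments per library. With a pseudocount of 0.1 the log2 change was 0.51, with an adjusted p of 0.302.

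The wider list of 11 cytokines that use gp130 or a related chain held 5 tested genes, and all 5 rose: Csf3, Lif, Osm, Il27 and Ebi3. Lif entered only through its TABS libraries, the median log2 change of 0.71 is its own value, and 5.07% of all genes tested rose, so this count is a description and not support. Il27 and Ebi3 encode the subunits that together make interleukin 27. Ebi3 was by level the most abundant cytokine of the list, at 76.7 ± 3.48 FPKM with TABS and 55.6 ± 5.70 FPKM with HA/Mg (SD, n = 4), a log2 change of 0.46 ± 0.070 with an adjusted p of 0.00859 from limma. Il27 was at 6.82, 6.26, 6.98 and 6.25 FPKM in the TABS libraries and 2.71, 4.53, 3.48 and 3.26 FPKM in the HA/Mg libraries. Its log2 change was 0.77 ± 0.11 with an adjusted p of 0.00851 from limma, and TABS replicates 5 and 6 did not stand apart from 7 and 8 as they did for Csf3 and Lif. An exon of Il27 shares 103 bases with one of Apobr on the opposite strand, and the sources used here do not say whether fragments were counted by strand.

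The remaining cytokines of the list were low. Il11, Cntf and Ctf1 had levels below 1 FPKM in all 8 libraries, and Clcf1 and Il31 were listed at 0 in all of them. Of the 5 tested cytokines, 2 passed without a filter on low values, where 0.96% of all genes rose. The number that passed was 2 without HA/Mg replicate 5, and 3 without HA/Mg replicate 7, HA/Mg replicate 8 or TABS replicate 5.

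**Figure D3:**
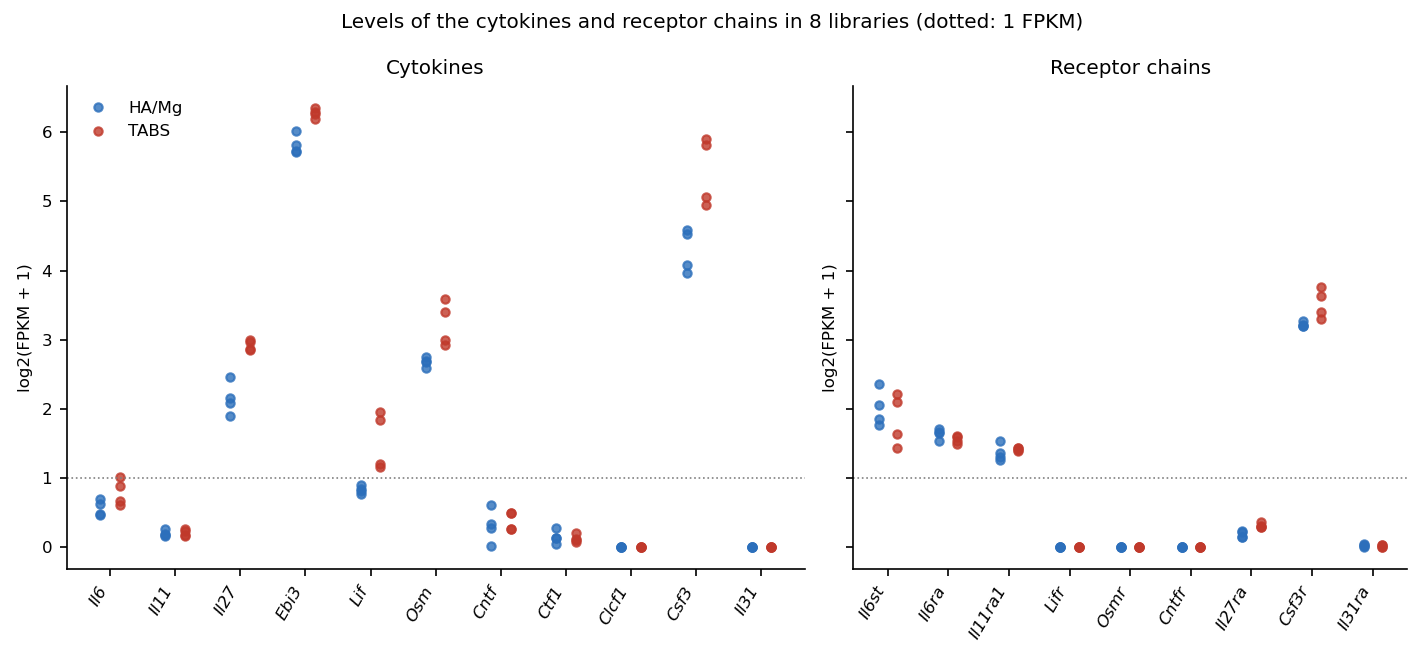
Level as log2(FPKM + 1) (vertical axis) of the 11 listed cytokines (left) and 9 receptor chains (right) in each HA/Mg library (blue) and TABS library (red), with the dotted line at 1 FPKM. Ebi3, Csf3, Osm, Il27, Lif, Csf3r and Il27ra were higher in all TABS libraries, and the points of Lifr, Osmr and Cntfr lie at 0.

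None of the 4 tested receptor chains passed the test, where 5.07% of all genes tested rose and 13.1% fell. Csf3r encodes the receptor of G-CSF, which is typical of neutrophils and is also made by macrophages. It stood at 12.6, 11.4, 8.89 and 9.60 FPKM in the TABS libraries and 8.29, 8.63, 8.16 and 8.18 FPKM in the HA/Mg libraries. All TABS libraries were above the HA/Mg libraries, with replicates 5 and 6 highest as for Csf3. The means were 10.6 ± 1.68 and 8.31 ± 0.215 FPKM (SD, n = 4), and the log2 change was 0.31 ± 0.094 with an adjusted p of 0.0504 from limma, just above the threshold. The adjusted p was below it under 7 of 19 alternatives, among them median-of-ratios scaling at 0.0291 and quantile normalization at 0.0247, and 2 single libraries, TABS replicate 7 (0.0340) and HA/Mg replicate 6 (0.0457), had the same effect when left out. The gene (ENSMUSG00000028859) lies at chr4:126024550-126044440 on the plus strand.

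Il6st, which encodes gp130, varied more within the groups than between them. Its levels were 3.64, 2.12, 1.69 and 3.27 FPKM in the TABS libraries and 2.60, 3.14, 4.15 and 2.42 FPKM in the HA/Mg libraries, and the groups overlapped. The log2 change was -0.17 ± 0.19 with an adjusted p of 0.555 from limma. The gene (ENSMUSG00000021756) lies at chr13:112464070-112510086 on the plus strand.

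Il6ra encodes the chain that binds interleukin 6 itself. It was at 2.0, 2.05, 1.90 and 1.82 FPKM in the TABS libraries and 2.28, 1.89, 2.14 and 2.17 FPKM in the HA/Mg libraries. The groups overlapped only through HA/Mg replicate 6, the lowest of its group. The log2 change was -0.083 ± 0.063 with an adjusted p of 0.363 from limma, and its sign turned, to 0.0047, once the length and GC trends were removed. The gene (ENSMUSG00000027947) lies at chr3:89864059-89913196 on the minus strand.

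The genes of the chains that pair with gp130 for LIF and for oncostatin M had no signal in the table. Lifr and Osmr were each listed at 0 in all 8 libraries, as was the further receptor chain Cntfr, while Il6st was at 1.69 to 4.15 FPKM. Il27ra, the specific chain for interleukin 27, reached at most 0.283 FPKM, an estimated 7 to 18 fragments per library. Its TABS libraries all lay above its HA/Mg libraries, with an adjusted p of 0.0550 from limma without a filter on low values. The list of 9 receptor chains held 4 tested genes, with none past the threshold and a median log2 change of -0.017. With 5.07% of all genes tested rising and 13.1% falling, none among 4 is near those shares and shows nothing particular to receptors. Bulk RNA cannot tell fewer cells that express a gene from less of its RNA in each cell.

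Jak1 encodes the kinase bound to gp130 and to many other cytokine receptors, and it was the 1 member that fell. Its levels were 31.3, 31.6, 29.7 and 30.3 FPKM in the TABS libraries and 36.3, 33.6, 36.8 and 35.5 FPKM in the HA/Mg libraries. The groups did not overlap, and the libraries within each group lay close together. The means were 30.7 ± 0.893 and 35.6 ± 1.39 FPKM (SD, n = 4), a level 1.16-fold lower with TABS, and the log2 change was -0.21 ± 0.043 with an adjusted p of 0.0170 from limma. The gene (ENSMUSG00000028530) lies at chr4:101152367-101265282 on the minus strand. With the length and GC trends removed the log2 change was -0.089 and the adjusted p 0.146. It was 0.0612 without HA/Mg replicate 5 and 0.0617 without HA/Mg replicate 7.

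Stat3, the transcription factor of the axis, stayed within the spread of the libraries. Its levels were 12.3, 11.9, 11.5 and 11.1 FPKM in the TABS libraries and 12.3, 10.7, 12.3 and 12.4 FPKM in the HA/Mg libraries. Only HA/Mg replicate 6 stood below the rest of its group. The log2 change was -0.023 ± 0.059 with an adjusted p of 0.810 from limma, and its sign turned with median-of-ratios scaling, at 0.030, with quantile normalization, at 0.028, and with the length and GC trends removed, at 0.0092. The gene (ENSMUSG00000004040, chr11:100885098-100939540, minus strand) shares 72 exon bases with Stat5a on the other strand.

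Among 10 Janus kinases and STAT factors, 9 were tested, Jak3 rose, Jak1 fell and 7 did not pass, with a median log2 change of 0.14, beside the 5.07% and 13.1% of all genes tested that rose and fell. Jak3, a kinase that works with the common gamma chain of lymphoid cytokine receptors, rose from 3.99 ± 0.173 to 5.03 ± 0.0770 FPKM (SD, n = 4), a log2 change of 0.27 ± 0.052 with an adjusted p of 0.0137 from limma. For Jak3 the adjusted p was 0.0704 once the length and GC trends were removed. The number that rose was 5 with median-of-ratios scaling and 4 with quantile normalization or array weights. It was 2 with a pseudocount of 0.1, with a mean of at least 5 FPKM, with no mean-variance trend, and when HA/Mg replicate 6 or 8 was left out.

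Socs3 encodes the inhibitor that STAT3 induces and that binds gp130 and the G-CSF receptor. It was at 29.2, 29.3, 24.6 and 25.2 FPKM in the TABS libraries and 20.0, 17.2, 20.8 and 23.8 FPKM in the HA/Mg libraries. The groups did not overlap, although TABS replicate 7 and HA/Mg replicate 8 were close. The means were 27.1 ± 2.48 and 20.5 ± 2.72 FPKM (SD, n = 4), a ratio of 1.32, and the log2 change was 0.39 ± 0.096 with an adjusted p of 0.0265 from limma. The gene (ENSMUSG00000053113) lies at chr11:117966079-117970047 on the minus strand, and the STAT pattern shown above lies within that GENCODE span, before the RefSeq start. The adjusted p was 0.0684 with the length and GC trends removed and 0.0570 with equal sums. It was 0.0677 and 0.0603 without TABS replicates 5 and 6, and 0.0779 and 0.0678 without HA/Mg replicates 5 and 7.

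Of the 16 listed inhibitors of the pathway 12 were tested, Socs3 rose, Ptpn2 fell and 10 did not pass, where 5.07% of all genes tested rose and 13.1% fell. Their median log2 change was -0.085, at -0.14 and -0.13 when TABS replicate 5 or HA/Mg replicate 6 was left out, and at -0.042 and -0.017 when HA/Mg replicate 8 or TABS replicate 7 was. With array weights, or when HA/Mg replicate 6 was left out, 4 inhibitors fell. Ptpn2 encodes a phosphatase that removes phosphate from JAK1 and STAT proteins, and it was at 11, 11.1, 10.4 and 11.9 FPKM in the TABS libraries and 13.8, 12.8, 13.3 and 14.4 FPKM in the HA/Mg libraries. The groups did not overlap, and the log2 change was -0.27 ± 0.055 with an adjusted p of 0.0157 from limma. The adjusted p was 0.215 with the length and GC trends removed and 0.0559 without HA/Mg replicate 5. Socs1 and Socs2, relatives of Socs3, reached at most 0.141 and 0.0186 FPKM in any library.

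The list of 25 genes described as STAT3 targets, many of which respond to other factors as well, held 21 tested genes. Of these 7 rose, 1 fell and 13 did not pass, with a median log2 change of 0.12, where 5.07% of all genes tested rose and 13.1% fell. The lists were chosen with earlier results of these data known, and this list holds the member Socs3. Its counts, like those of the other lists, are a description and not support. Tnfrsf1b, which encodes a receptor of tumour necrosis factor, was at 74.7, 71.0, 50.5 and 52.6 FPKM in the TABS libraries and 36.4, 37.7, 39.2 and 38.2 FPKM in the HA/Mg libraries. It rose by 0.68 ± 0.12 on the log2 scale with an adjusted p of 0.0120 from limma, and TABS replicates 5 and 6 were again the highest. Pim1, a survival kinase, rose from 16.8 ± 1.0 to 26.6 ± 4.34 FPKM (SD, n = 4), a log2 change of 0.62 ± 0.10 with an adjusted p of 0.00971 from limma. Bcl3, a nuclear partner of NF-kB, rose from 18.4 ± 1.18 to 23.2 ± 0.747 FPKM, a log2 change of 0.32 ± 0.052 with an adjusted p of 0.00984 from limma.

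Icam1, an adhesion molecule, rose by 0.37 ± 0.082 on the log2 scale with an adjusted p of 0.0197 from limma. The acute-phase gene Saa3 rose by 0.27 ± 0.080 with an adjusted p of 0.0447. The factor Cebpb rose by 0.24 ± 0.073 with an adjusted p of 0.0479, its groups overlapped, and it shares 312 exon bases with Tmem189 on the other strand. Hif1a, the oxygen-regulated factor, was the 1 gene of the list that fell, from 20.5 ± 1.92 to 16.0 ± 1.52 FPKM (SD, n = 4), a log2 change of -0.34 ± 0.084 with an adjusted p of 0.0272 from limma. With the length and GC trends removed 4 genes of the list rose and none fell. The log2 change of Hif1a was then -0.13 (adjusted p 0.113) and that of Cebpb 0.15 (0.188), both smaller, while that of Saa3 was 0.32 (0.0591), larger than before. The number that fell was 3 with array weights and 2 with equal sums or when HA/Mg replicate 6 was left out. The number that rose was 3 without a filter, 4 with equal sums, 3 without HA/Mg replicate 5 or 7, and 4 without TABS replicate 5 or 6. Hif1a did not pass when replicate 5, 7 or 8 of either group was left out, at adjusted p-values from 0.0511 to 0.0801. Saa3 was lost when replicates 5, 6 or 7 of TABS or 5, 7 or 8 of HA/Mg were left out 1 at a time, at 0.0692 to 0.114. For Cebpb these were 5, 6 and 8 of TABS and 5, 6 and 7 of HA/Mg, at 0.0674 to 0.127. Icam1 was lost at 0.0655 and 0.0548 when HA/Mg replicate 5 or 7 was left out, and at 0.0571 without a filter.

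**Figure D4:**
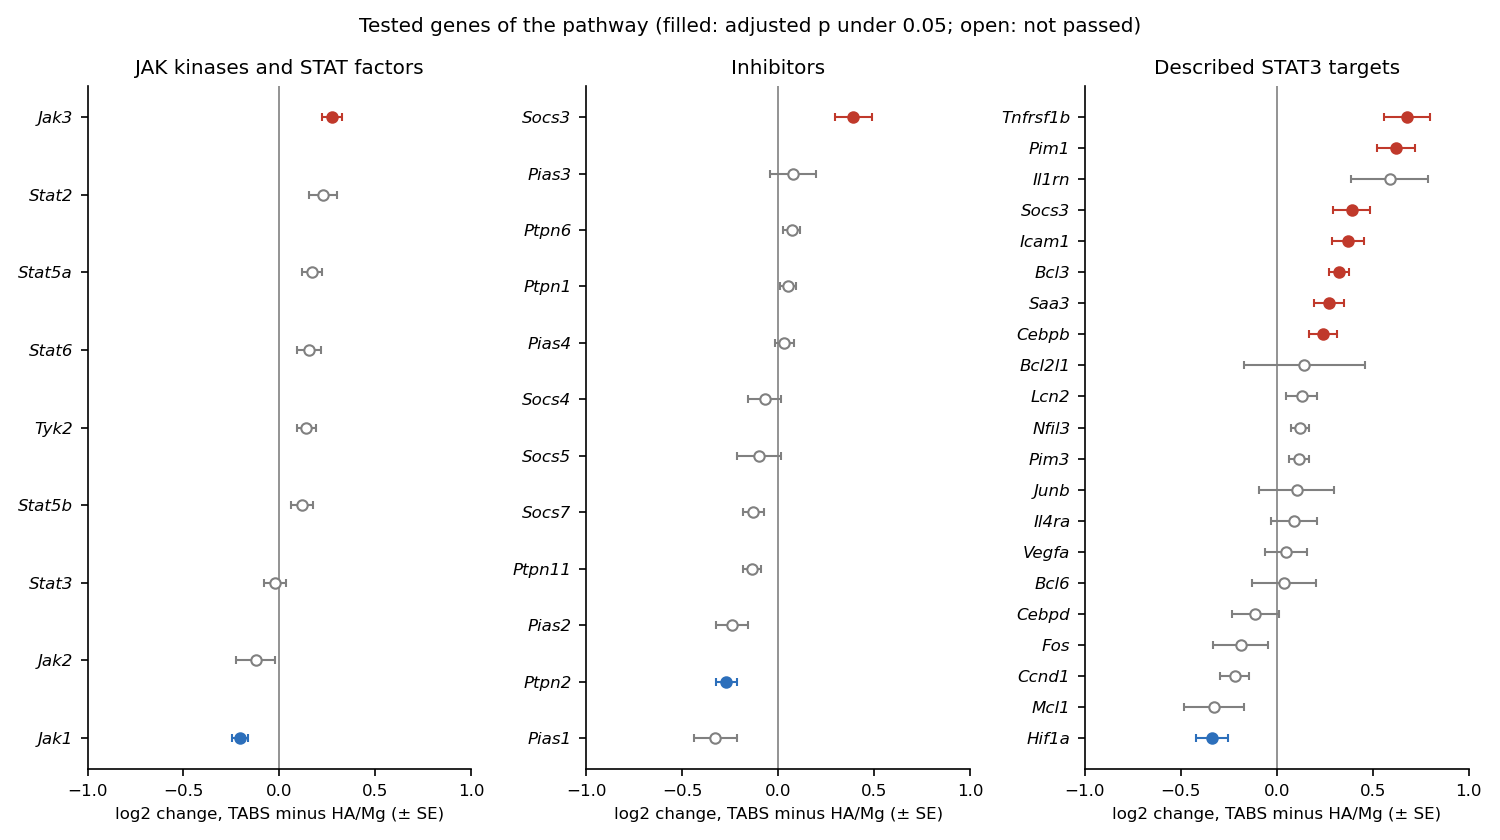
Log2 change of log2(FPKM + 1), TABS minus HA/Mg (horizontal axis, with the model's standard error), of each tested gene among the Janus kinases and STAT factors (left), the inhibitors (middle) and the described STAT3 targets (right). Filled red points rose and filled blue points fell at an adjusted p under 0.05, and open points did not pass; Socs3 lies far above the other inhibitors, at 0.39.

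The colony-stimulating factors and their receptors place Csf3 among its relatives. Of 8 genes 6 were tested, Csf3 and Csf1r rose, and 4 did not pass, with a median log2 change of 0.26, where 5.07% of all genes tested rose. Without TABS replicate 6 the median was 0.16, and the log2 change of Csf2rb, at 10.4 FPKM in that library, went from 0.33 to 0.10. The number that rose was 1 without a filter or without HA/Mg replicate 5, and 3 when TABS replicate 7 or HA/Mg replicate 6 was left out. Csf1r encodes the receptor that macrophages need for survival, and it rose from 96.5 ± 0.988 to 113 ± 3.72 FPKM (SD, n = 4), a log2 change of 0.22 ± 0.037 with an adjusted p of 0.0112 from limma. An exon of Csf1r shares 873 bases with Hmgxb3 on the opposite strand, which was at 6.23 to 8.63 FPKM. Csf2, which encodes granulocyte-macrophage colony-stimulating factor, stayed between 0.139 and 0.402 FPKM, and Csf1 between 0.491 and 1.31 FPKM. The receptor genes Csf2rb and Csf2rb2 are near-identical copies between which counting could divide fragments.

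In 6 members (Csf3, Lif, Osm, Il6, Csf3r and Socs3) TABS replicates 5 and 6 were the 2 highest of the 8 libraries. The share of all genes tested with that order was not counted, so this number describes the members only. The same pair stood apart across all tested genes: on the second principal component, with 18.3% of the variance, they lay at 11.6 and 11.2, whereas TABS replicates 7 and 8 lay at -8.38 and -1.70. On the first component, with 40.2%, HA/Mg replicate 6 lay at -2.62, nearer to the TABS libraries (-16.5 to -5.72) than to the other HA/Mg libraries (12.7 to 16.4). The labels name no batch, and what separates these libraries was not tested. The members' GC content ran from 39.3% in Il6 to 58.7% in Socs3, with a median of 49.8% over all genes tested. Csf3, Lif, Osm, Csf3r, Socs3, Stat3 and Il6ra lay above that median, and Jak1 (47.6%), Il6st (47.4%) and Il6 lay below it. Across the libraries the change moved with GC content: its median was -0.20 on the log2 scale in the fifth of genes with the lowest GC content and 0.084 in the fifth with the highest.

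The cells carried macrophage markers, with 6 of 7 at 1 FPKM or more and Mertk at or near 0. The summed marker level was 2083 to 2451 FPKM with TABS and 1755 to 2186 FPKM with HA/Mg, so the sums, in which Lyz2 holds the most, overlapped. Single markers moved: Cd68 was at 526 to 563 FPKM with TABS and 421 to 490 FPKM with HA/Mg, a log2 change of 0.26 ± 0.058 with an adjusted p of 0.0197 from limma, and Csf1r rose as given above. Adgre1 did not overlap either, at 91.1 to 114 and 77.1 to 89.6 FPKM, with an adjusted p of 0.0579. Lyz2 and Fcgr1 did not pass, at log2 changes of 0.18 and 0.10 with adjusted p-values of 0.200 and 0.320 from limma. Itgam went the other way, at -0.080 with an adjusted p of 0.758. It shares 210 exon bases with Gm49368 on the same strand, at 46.8 to 83.3 FPKM, and counting could divide fragments between them. The call of Cd68 was lost without a filter (0.0556) and when HA/Mg replicate 5, 7 or 8 was left out (0.0547, 0.0660 and 0.0531). The part of these markers in the members' changes was not tested. Neutrophil markers, relevant for Csf3r, summed to at most 0.248 FPKM with TABS and 0.257 FPKM with HA/Mg, with none of 8 at 1 FPKM and S100a9, Mpo and Mmp8 at 0. Markers of osteoblasts and fibroblasts, which make LIF and interleukin 6, summed to at most 0.284 and 0.189 FPKM, with Bglap at 0. Of 6 osteoclast markers only Dcstamp reached 1 FPKM, the sums were 2.14 to 3.8 and 2.03 to 2.55 FPKM, and Calcr was at 0. T cell markers summed to 0 with TABS and at most 0.0235 FPKM with HA/Mg, and B cell markers to at most 0.560 and 0.328 FPKM.

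The genes whose pattern over the 8 libraries was most like that of a member were found by the mean absolute difference of log2(FPKM + 1), after each gene was centred on its own mean, among the 6383 tested genes that averaged 5 FPKM or more. For Csf3 the nearest were the chemokine gene Ccl4, at a difference of 0.0977, and Acod1, which encodes the enzyme that makes itaconate, at 0.102. They were followed by Ptgs2, the inducible cyclooxygenase, at 0.199, Traf1, an adaptor of tumour necrosis factor receptors, at 0.233, and the chemokine gene Ccl3, at 0.235. Ccl4 was at 257, 255, 139 and 151 FPKM in the TABS libraries and 81.6, 80.7, 94.6 and 108 FPKM in the HA/Mg libraries. It had the same high pair as Csf3, which the choice by likeness favours. For Osm the nearest were Ticam1, a toll-like receptor adaptor, at 0.0621, Zfp36, which encodes a protein that destabilises cytokine messenger RNA, at 0.0700, and the integrin gene Itga5, at 0.0736. For Socs3 they were Snx20 at 0.0561, Rab20 at 0.0573 and Rhog at 0.058. A member whose level varies little has small differences from many genes, so these distances were not compared between members.

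**Figure D5:**
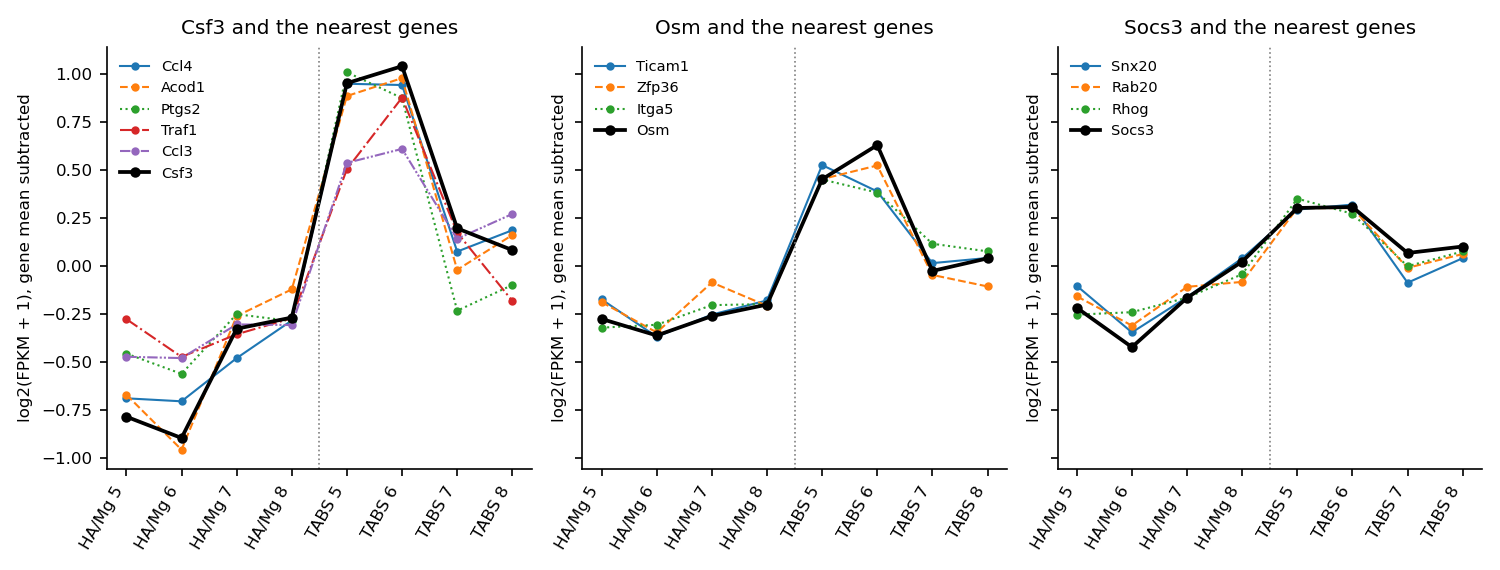
Level as log2(FPKM + 1) minus each gene's mean (vertical axis) in the 8 libraries (horizontal axis, HA/Mg left of the dotted line, TABS right) for Csf3, Osm and Socs3 (black) and the genes nearest to each (colours). Lines join the points of 1 gene only to make it easier to follow, since libraries have no order. All 3 members and their nearest genes were highest in TABS replicates 5 and 6. The choice of genes by likeness over these same libraries favours this.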

How the data were processed

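Per the labels' protocols, RNA was extracted with TRIzol, had an RNA integrity number above 7, and was made into NEBNext Ultra RNA libraries sequenced as 150-base paired ends on a NovaSeq. The submitters' processing notes name DESeq2, STAR and fastp and the build GRCm38. Not given in the sources used here are their roles, the tool behind the FPKM values, the annotation and any use of strand. The authors deposited FPKM values for 55335 gene identifiers, of which 55154 matched GENCODE vM21 on GRCm38, used here for symbols, positions, length and GC content. FPKM is relative to each library's total, so a rise in abundant transcripts lowers other values.

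The steps between low FPKM values gave an estimated depth of 19650000 to 23580000 fragments per library. Only 36.3% to 39.9% of low values were whole within 0.05 fragment, so no count test was run.

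TABS was compared with HA/Mg by limma 3.58.1 in R 4.3.3 on log2(FPKM + 1), two-sided, with a mean-variance trend in the empirical Bayes moderation and Benjamini-Hochberg adjustment over all genes that reached 1 FPKM in 4 or more libraries. Fold changes are on that scale, and ratios are of mean FPKM. The steps were tested on simulated data with independent values for each library. Changes were placed there only in genes above the levels of Lif, Il6, Il6st and Il6ra. The simulation therefore does not speak for members that low or for deviations that genes of a library share. The members, lists and rule for named genes were chosen with earlier results of these data known. All members, every changed gene of the lists as reported (2 genes first listed are not reported here) and the nearest 5 (Csf3) or 3 (Osm, Socs3) genes by pattern were named; other listed genes and markers were named with their values in view. The alternatives tried were another pseudocount, other filters, scalings and moderation, removal of length and GC trends by splines with 4 degrees of freedom, a block for the replicate number, and leaving out each library.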

Additional observations from a re-analysis of the deposited data

Results flagged for a closer look

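Among 66 genes of the axis, its lists and the nearest patterns, each group of 4 libraries was searched for a library far from the others, by a gap beyond Dixon's critical share of the group's range. Of 132 groups 6 held one, 4.55%, and chance gives about 1 in 20. Stat3 was at 10.7 FPKM in HA/Mg replicate 6, below 12.3 to 12.4 FPKM in the other 3 libraries. Socs7, another inhibitor of the family, was at 6.28 FPKM in HA/Mg replicate 6, below 6.69 to 6.72 FPKM in the others. Vegfa, a growth factor of vessels, was at 4.15 FPKM in the same library, below 5.14 to 5.33 FPKM. Bcl2l1, a survival gene, was at 53.8 FPKM in TABS replicate 8, where the others were at 22.7 to 25.9 FPKM, and at 47.4 FPKM in HA/Mg replicate 7, where the others were at 21.5 to 22.3 FPKM. Pim3, a kinase related to Pim1, was at 21.4 FPKM in HA/Mg replicate 7, below 24.0 to 24.4 FPKM.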

How the results depend on the processing

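The log2 changes of Csf3, Lif, Osm, Csf3r and Socs3 stayed above 0, and that of Jak1 below 0, under all alternatives run. Across all genes 1842 changed (515 higher, 1327 lower), and with median-of-ratios scaling 806 rose and 1050 fell, with quantile normalization 806 and 1192, and with equal sums 251 and 1549. Without a filter 808 genes and 1 member (Jak1) passed, and Csf3 at 1.14, Lif at 0.71, Osm at 0.55 and Socs3 at 0.39 did not. Array weights gave 3532 genes. With length and GC trends removed 647 genes and 2 members passed; Osm at 0.49, Jak1 at -0.089 and Socs3 at 0.30 did not, and Il6ra at 0.0047 and Stat3 at 0.0092 turned sign. With equal sums Socs3, at 0.34, did not pass. A pseudocount of 0.1 moved Lif to 1.17 and Il6 to 0.51. Csf3r passed with a pseudocount of 0.1 (0.34), a mean of at least 5 FPKM (0.31), median-of-ratios scaling (0.36), quantile normalization (0.38) and array weights (0.34). Stat3 turned sign with median-of-ratios scaling (0.030) and quantile normalization (0.028), and Il6ra with the latter (0.00039). Lif, Il6, Il6st and Il6ra have no value at a mean of at least 5 FPKM. The cause of these shifts was not tested.

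With the replicate number as a block, 0 genes and 0 members passed (limma; smallest adjusted p 0.0589, 2987 genes at an unadjusted p under 0.05), with Csf3 at 1.14, Lif at 0.71, Osm at 0.55, Jak1 at -0.21 and Socs3 at 0.39. With the block and the trends removed, 0 genes and 0 members passed (smallest adjusted p 0.0565, 2223 genes at an unadjusted p under 0.05), with Csf3 at 1.04, Lif at 0.71, Osm at 0.49, Jak1 at -0.089 and Socs3 at 0.30, and Il6ra at 0.0047 and Stat3 at 0.0092. The deviations of same-numbered libraries from their group means correlated at r = 0.0106, -0.275, -0.16 and 0.128 for replicates 5 to 8. Those of differently numbered libraries correlated at -0.251 to 0.382. With 4 libraries in a group such values cannot settle whether the numbers mark pairs, and the main fit took none.

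Leaving out 1 library gave 429 (HA/Mg replicate 5) to 3320 genes (HA/Mg replicate 6) and 0 (HA/Mg replicate 5) to 6 members. The range was 0.98 to 1.30 for Csf3, 0.58 to 0.84 for Lif, 0.43 to 0.65 for Osm, 0.23 to 0.38 for Csf3r, -0.23 to -0.19 for Jak1 and 0.32 to 0.46 for Socs3. Il6 and Lif rest on the fewest fragments among the cytokine members, by estimate.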
